A study of Mus musculus with 9 samples.

Results

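Scavenger receptors are surface proteins with which phagocytes bind and take up particles, modified lipoproteins, microbes and debris. They are not one protein family but several classes joined by the wide range of polyanionic and lipid ligands they bind, and one cell usually displays several of them. Class A receptors, with a collagen-like stalk or a related build, have been studied as receptors of macrophages for uncoated mineral particles, silica among them, and microglia, the resident macrophages of the brain, use them together with class B receptors to clear aggregates and myelin debris.

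The 10 genes described here are Marco, Msr1 and Colec12 (class A), Cd36, Scarb1 and Scarb2 (class B), Cd68 (class D), Olr1 (class E), Stab1 (class H) and the mannose receptor Mrc1. They were taken by gene name from an expression table of 40993 genes, and all 10 were found there, each in 1 row. A mean of at least 1 FPKM (fragments per length of transcript, scaled to the mapped fragments of the library) over all libraries was reached by 11161 genes, among them 9 of the 10 receptor genes. Olr1 stayed below this level.

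The cells were BV2, an immortalized mouse microglial line. They received MNPs@SiO2(RITC), magnetic nanoparticles with a cobalt ferrite core and a silica coat that holds the dye rhodamine B isothiocyanate. The control group was not treated, and the other groups received 10 µg/ml or 100 µg/ml for 12 h (0.01 and 0.1 µg/µl in the sample labels). Each group had 3 libraries, and since nothing states that they came from separate cultures, the p-values below measure the spread between libraries, which may be technical. As RNA of whole cultures was measured, fewer cells of a type and less RNA per cell cannot be told apart.

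The labelled cell type was checked on marker genes. Of 11 microglia and macrophage markers, 9 were at a mean of at least 1 FPKM, while Cx3cr1 and P2ry12 were below it. No marker of astrocytes, neurons, oligodendrocytes or fibroblasts reached 1 FPKM, but 2 of 6 endothelial markers did (Kdr at a mean of 67.9 and Vwf at 5.10 FPKM), as did 2 of 7 markers of border-associated macrophages (Pf4 at 178 and Ms4a7 at 8.97 FPKM). Cldn5 of the endothelial list and Cd163 and Cd209f of the border-associated list were at 0 in every library. The estimated depth was 12200000 to 15600000 fragments per library, read from the steps between low FPKM values, and is approximate. The first library at 100 µg/ml stood apart. The deviations of its genes from their means over all 9 libraries had a Pearson r of -0.37 with log transcript length across genes. In the other 8 libraries this r was -0.11 to 0.17. Such deviations also hold any difference between the doses. Values of Marco, Msr1 and Mrc1 without the first library at 100 µg/ml are therefore given beside their results.

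The sequence upstream of the start site is shown for 3 genes that differ in their response at 100 µg/ml: Marco, which fell, Mrc1, whose lower values did not pass the adjusted threshold, and Cd68, the most abundant of the receptor transcripts, whose values overlapped between groups. Each run is the 250 bases before the RefSeq start on GRCm38.p6, written 5′ to 3′ on the strand of the gene, at chr1:120505025-120505274 (minus strand) for Marco, chr2:14229164-14229413 (plus strand) for Mrc1 and chr11:69666171-69666420 (minus strand) for Cd68. Capitals mark GAGGAA, the core bound by PU.1, the factor that marks myeloid promoters, or its reverse complement TTCCTC, and TGANTCA, the AP-1 site.
Marco: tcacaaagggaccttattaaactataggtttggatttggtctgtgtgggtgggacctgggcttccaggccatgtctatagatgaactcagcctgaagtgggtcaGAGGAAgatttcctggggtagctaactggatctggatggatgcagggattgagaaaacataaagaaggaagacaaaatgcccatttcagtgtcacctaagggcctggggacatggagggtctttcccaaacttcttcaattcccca
Mrc1: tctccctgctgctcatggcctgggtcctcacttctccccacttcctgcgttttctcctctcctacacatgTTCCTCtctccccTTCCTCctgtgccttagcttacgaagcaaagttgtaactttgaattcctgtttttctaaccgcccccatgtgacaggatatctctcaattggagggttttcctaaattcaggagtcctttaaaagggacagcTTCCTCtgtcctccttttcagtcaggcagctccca
Cd68: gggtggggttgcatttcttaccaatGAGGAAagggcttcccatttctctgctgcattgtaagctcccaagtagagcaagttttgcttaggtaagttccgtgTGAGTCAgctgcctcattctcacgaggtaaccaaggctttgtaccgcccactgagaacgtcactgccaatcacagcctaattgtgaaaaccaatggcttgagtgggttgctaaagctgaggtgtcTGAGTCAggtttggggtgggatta

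RefSeq promoters matched 7 of the 10 receptor genes. On both strands, GAGGAA occurred in 5 of the 7 (Marco, Cd68, Stab1, Mrc1 and Olr1) and in 23.3% of all 32851 promoters. Mrc1 held 3 copies, all on the reverse strand. TGANTCA occurred in Cd68 at 2 positions and in Olr1 once, and in 6.75% of all promoters. TGCTGA, the half-site of large Maf factors, occurred in Cd36, Scarb2 and Stab1 (16.1% of all promoters), and TGACNNNGC, the core of the antioxidant response element, in Scarb2 alone (10.2%). CACGTG and TATAAA were in none of the 7, and in 6.02% and 12.4% of all promoters. These are matches of letters in a window and were not tested for binding.

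Among the class A receptors, Marco (ENSMUSG00000026390, chr1:120474538-120505024 on GRCm38), which binds silica particles and bacteria, showed the largest change of the 9 tested receptor genes. In control cells its level was 93.8, 103 and 94.1 FPKM. It was 79.3, 85.7 and 82.3 FPKM at 10 µg/ml, and at 100 µg/ml it was 58.0, 42.0 and 50.8 FPKM. The groups did not overlap: every library at 10 µg/ml was below every control, and every library at 100 µg/ml was below every library at 10 µg/ml. The means were 96.8 ± 5.0 FPKM in control cells, 82.4 ± 3.20 FPKM at 10 µg/ml and 50.3 ± 8.03 FPKM at 100 µg/ml (SD, n = 3 libraries each), so that 51.9% of the control level was left at the high dose and 85.1% at the low dose.

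**Figure D1:**
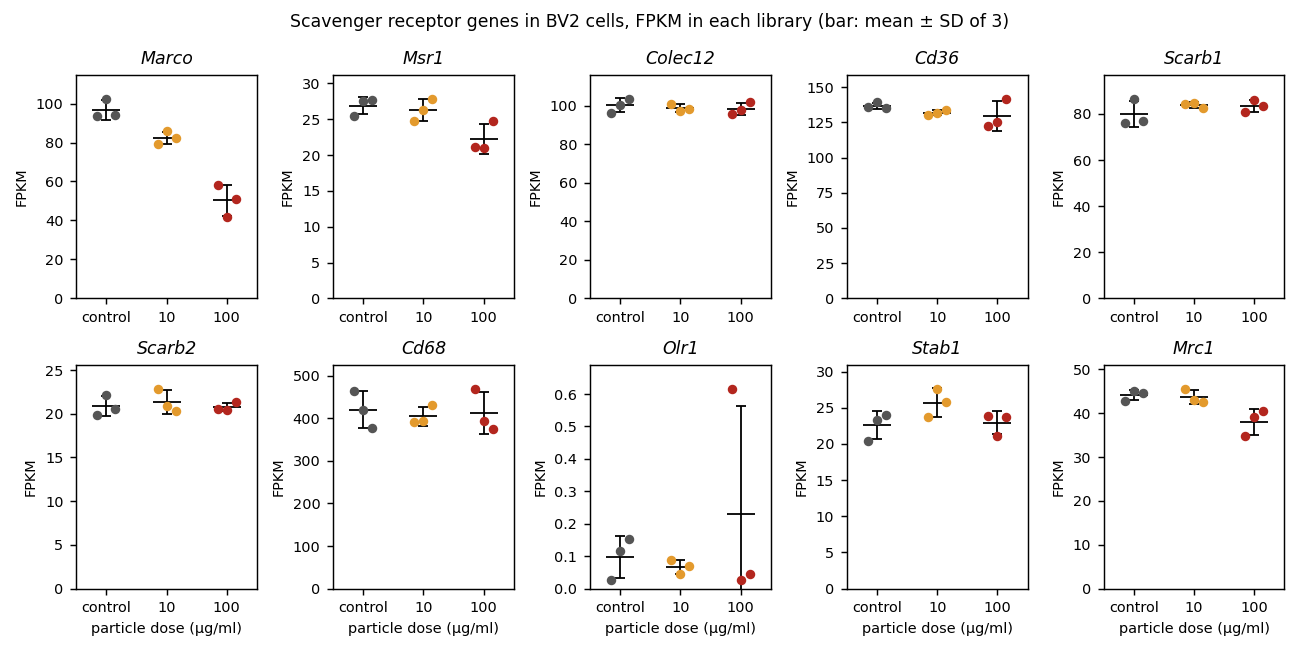
FPKM of the 10 receptor genes (vertical axes, each from 0) in control cells and at 10 and 100 µg/ml (horizontal axes); points are libraries and bars the mean ± SD of 3. Marco stepped down from 96.8 to 82.4 and 50.3 FPKM, Msr1 and Mrc1 were lower at 100 µg/ml without overlap, and the high mean of Olr1 at 100 µg/ml came from 1 library at 0.616 FPKM.

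At 100 µg/ml against control, the log2 fold change of Marco on the log2(FPKM + 1) scale was -0.94 (SE 0.10, 95% interval -1.18 to -0.71), with an adjusted p of 0.00566 by limma. Marco was the only one, 1 of 9 tested receptor genes past the adjusted threshold, against 2.11% of all tested genes (1.41% lower and 0.708% higher). By the size of its fall it ranked 50 among the 11161 genes. Without the first library at 100 µg/ml the log2 fold change was -1.05 (limma, adjusted p = 0.00367), and over all 20 other settings it ranged from -1.05 to -0.82. In a fit of only the 6 libraries compared, the adjusted p of limma was 0.0561.

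The summed FPKM of a library divided the libraries into 3 above 500000 (controls 1 and 2 and the first at 100 µg/ml) and 6 below it. Among those above, Marco at 100 µg/ml was at 59.1% of its control level (1 against 2 libraries), and among those below, at 49.3% (2 against 1 libraries). The limit was set after the sums were seen, no test can be made with these numbers of libraries, and the part of the summed level in the result was not tested.

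Between the doses Marco also fell. At 100 against 10 µg/ml its log2 fold change was -0.71 (SE 0.10, 95% interval -0.95 to -0.48), with an adjusted p of 0.0243 by limma, and 0.851% of all tested genes passed (0.636% lower). This call was held in 11 of 20 other settings and was lost when control library 1 or 3, any library at 10 µg/ml or the third at 100 µg/ml was left out, with adjusted p up to 0.109 by limma in these fits and log2 fold changes of -0.74 to -0.69. Without the first library at 100 µg/ml it was -0.82 (limma, adjusted p = 0.0100). For the low dose against control the log2 fold change of Marco was -0.23 (95% interval -0.46 to 0.01) with an unadjusted p of 0.0553 and an adjusted p of 1 by limma. The separation of the low-dose libraries from the controls thus did not pass the test.

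Msr1 (ENSMUSG00000025044, chr8:39581700-39642678), the founding class A receptor for acetylated lipoproteins, was less abundant than Marco. Its levels were 25.5, 27.5 and 27.7 FPKM in control cells, 24.7, 26.2 and 27.9 FPKM at 10 µg/ml, and 21.2, 20.9 and 24.7 FPKM at 100 µg/ml. The high-dose libraries all lay below the controls, the nearest by under 1 FPKM, while the low-dose libraries overlapped them. The high-dose mean was 82.8% of control, and the log2 fold change was -0.26 (95% interval -0.44 to -0.09) with an unadjusted p of 0.00768 and an adjusted p of 0.113 by limma, which does not pass. Without the first library at 100 µg/ml it was -0.23 (limma, adjusted p = 0.142). Colec12 (ENSMUSG00000036103), a class A receptor that carries a C-type lectin domain, was at 96.5, 101 and 104 FPKM in control cells and at 96.0, 97.7 and 102 FPKM at 100 µg/ml. These libraries overlapped, the log2 fold change was -0.03 and its 95% interval reached from -0.14 to 0.08 (limma, adjusted p = 0.807).

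The class B receptors span the membrane at both ends and bind lipids. Cd36 (ENSMUSG00000002944, chr5:17781690-17888959), a receptor for long-chain fatty acids and oxidized lipoproteins, was at 136, 139 and 135 FPKM in control cells. It was at 130, 132 and 134 FPKM at 10 µg/ml and at 122, 125 and 142 FPKM at 100 µg/ml. The 3 low-dose libraries lay below the controls by a small margin (96.4% of the control mean), and the high-dose libraries lay on both sides of them. The log2 fold change at 100 µg/ml was -0.08 (95% interval -0.21 to 0.06, limma adjusted p = 0.524).

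Scarb1 (ENSMUSG00000037936, chr5:125277087-125341094), the receptor for high-density lipoprotein, averaged 80.0 ± 5.83 FPKM in control cells, 83.9 ± 1.21 FPKM at 10 µg/ml and 83.3 ± 2.65 FPKM at 100 µg/ml (SD, n = 3 libraries). Scarb2 (ENSMUSG00000029426, chr5:92443873-92505608), which carries glucocerebrosidase to the lysosome, averaged 20.9 ± 1.17, 21.3 ± 1.35 and 20.8 ± 0.487 FPKM in the same order. For both, the groups overlapped in every comparison. At 100 µg/ml against control the 95% interval of the log2 fold change was -0.07 to 0.19 for Scarb1 and -0.15 to 0.14 for Scarb2, so a fall of the size seen for Marco lies outside both.

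Cd68 (ENSMUSG00000018774, chr11:69664213-69666153), a heavily glycosylated protein of late endosomes and lysosomes, was the most abundant receptor transcript in every library. It was at 465, 420 and 378 FPKM in control cells, 391, 395 and 431 FPKM at 10 µg/ml, and 470, 394 and 376 FPKM at 100 µg/ml. The control and high-dose libraries covered nearly the same range, and the log2 fold change was -0.03 (95% interval -0.26 to 0.20, limma adjusted p = 0.908). Stab1 (ENSMUSG00000042286, chr14:31139013-31168641), a large receptor for the matricellular protein SPARC and for modified lipoproteins, was at 20.4, 23.3 and 24.0 FPKM in control cells. It was at 23.7, 27.6 and 25.8 FPKM at 10 µg/ml and at 23.9, 21.1 and 23.8 FPKM at 100 µg/ml. Stab1 had the largest positive value at the low dose, a log2 fold change of 0.18 (95% interval -0.01 to 0.37, limma adjusted p = 1), but control and low-dose libraries overlapped. The end of Stab1 overlaps Nt5dc2, a gene on the opposite strand at a mean of 84.1 FPKM, and the sources used here do not say whether counting used the strand.

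Mrc1 (ENSMUSG00000026712, chr2:14229414-14332057), the mannose receptor CD206, was at 42.8, 45.0 and 44.5 FPKM in control cells. It was at 45.6, 43.0 and 42.5 FPKM at 10 µg/ml and at 34.7, 39.1 and 40.4 FPKM at 100 µg/ml. The high-dose libraries all lay below the other 6, with a mean at 86.3% of control. The log2 fold change was -0.21 (95% interval -0.36 to -0.06) with an unadjusted p of 0.0102 and an adjusted p of 0.128 by limma, which does not pass. After a correction for GC content and transcript length it passed, with a log2 fold change of -0.18 and an adjusted p of 0.0368 by limma. Mrc1 passed in only 1 of the 20 other settings. In that setting 806 of all genes passed, against 236 without the correction. Without the first library at 100 µg/ml the log2 fold change of Mrc1 was -0.15 (limma, adjusted p = 0.113).

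Olr1 (ENSMUSG00000030162, chr6:129485246-129507165), the lectin-like receptor for oxidized lipoprotein, was near the floor of the measurement. It was at 0.0259, 0.115 and 0.152 FPKM in control cells, at 0.0869, 0.0451 and 0.0698 FPKM at 10 µg/ml, and at 0.616, 0.0249 and 0.0440 FPKM at 100 µg/ml. At the estimated depth these levels stand for about 1.1 to 7.8 fragments in 8 libraries and 33.4 in the first library at 100 µg/ml, the one that also stood apart by transcript length, and the part of that library's length dependence was not tested. An exact permutation test over libraries (two-sided) gave p = 0.9 at 100 µg/ml against control, where the smallest p that 3 against 3 libraries allow is 0.1.

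**Figure D2:**
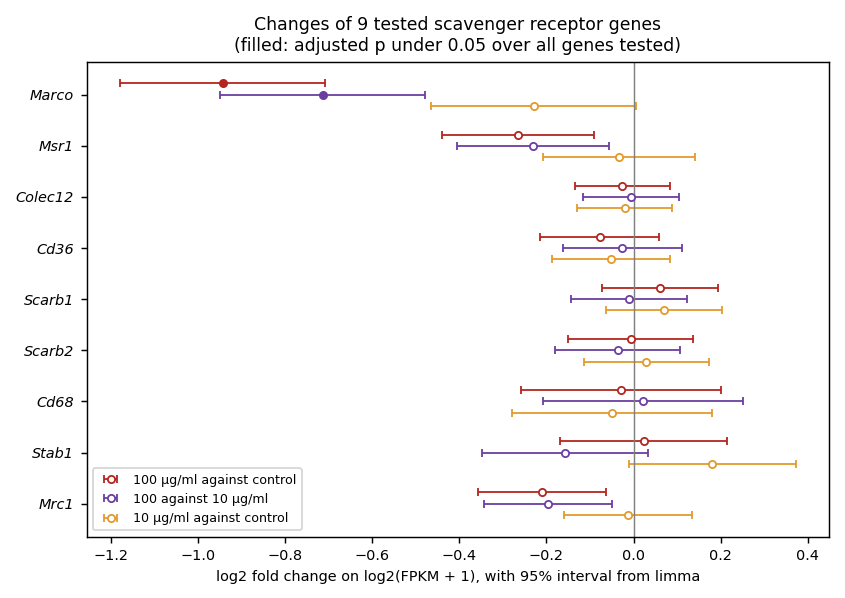
Log2 fold change on the log2(FPKM + 1) scale (horizontal axis) of the 9 tested receptor genes (vertical axis) in 3 comparisons, with 95% intervals from limma; filled points have an adjusted p under 0.05. The filled points are those of Marco at 100 µg/ml, at -0.94 against control and -0.71 against 10 µg/ml, and the intervals of Msr1 and Mrc1 lie below 0 at that dose without passing the adjusted threshold.

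Counted over the 9 tested receptor genes, 3 (Marco, Msr1 and Mrc1) had high-dose libraries wholly below the controls and none wholly above, against 11.4% of all tested genes lower and 12.5% higher without overlap. The same 3 had an unadjusted limma p under 0.05, as did 9.69% of all tested genes in the lower direction. The other 6 tested receptor genes overlapped. The receptor genes were chosen with earlier results of these data known, so the shares of all tested genes are given for scale only. The median log2 fold change of the 9 was -0.03, close to the median of all tested genes at -0.00, and 7 of 9 values were below 0 against 50.4% of all tested genes.

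In the low-dose comparison with control no receptor gene passed the adjusted threshold and none had an unadjusted p under 0.05. By limma 0% of all tested genes passed it there, and 366 genes (3.28%) had an unadjusted p under 0.05. Marco and Cd36 lay below the controls without overlap, 2 of 9, against 4.61% of all tested genes in that direction, and the median over the 9 was -0.02, with 6 of 9 below 0 against 49.8% of all tested genes. At 100 against 10 µg/ml the non-overlapping receptor genes were Marco, Msr1 and Mrc1, all lower, against 9.99% of all tested genes. The same 3 had an unadjusted limma p under 0.05, against 7.8% in the lower direction, and the median was -0.04. Msr1 barely cleared overlap, its nearest libraries being at 24.70 FPKM (100 µg/ml) and 24.72 FPKM (10 µg/ml). The comparisons share libraries, so they are not independent of each other.

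The order of the levels changed with the place of Marco. In control cells the means ran from Cd68 (421 FPKM) through Cd36 (137), Colec12 (100.4), Marco (96.8), Scarb1 (80.0), Mrc1 (44.1), Msr1 (26.9), Stab1 (22.6) and Scarb2 (20.9) to Olr1 (0.0977 FPKM). Neighbours whose control libraries overlapped were Colec12 with Marco and Stab1 with Scarb2. At 10 µg/ml Marco overlapped Scarb1, and at 100 µg/ml all its libraries lay below those of Scarb1, though still above those of Mrc1. Msr1 stood above Stab1 in every control library and overlapped Stab1 and Scarb2 at 100 µg/ml.

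Set against the other receptors within the same library, Marco was lower at 100 µg/ml than in control cells for each of 8 other tested receptor genes. The difference between its log2 change and theirs ran from -0.68 for Msr1 to -1.0 for Scarb1, and the exact permutation test over libraries gave p = 0.1 for each, the smallest that 3 against 3 libraries allow. Between 100 and 10 µg/ml all 8 differences were also without overlap. Between 10 µg/ml and control 7 of 8 were, Cd68 being the exception with an exact permutation p of 0.3. All 8 differences hold the same values of Marco, the gene with the largest change here. They are therefore not independent of each other and largely repeat the separation of Marco itself. The FPKM ratio of Marco to Msr1 went from 3.60 ± 0.180 in control cells to 3.14 ± 0.170 at 10 µg/ml and 2.27 ± 0.410 at 100 µg/ml (SD, n = 3). The share of Marco in the summed FPKM of the 10 genes was 10.2% in control cells, 8.96% at 10 µg/ml and 5.70% at 100 µg/ml.

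**Figure D3:**
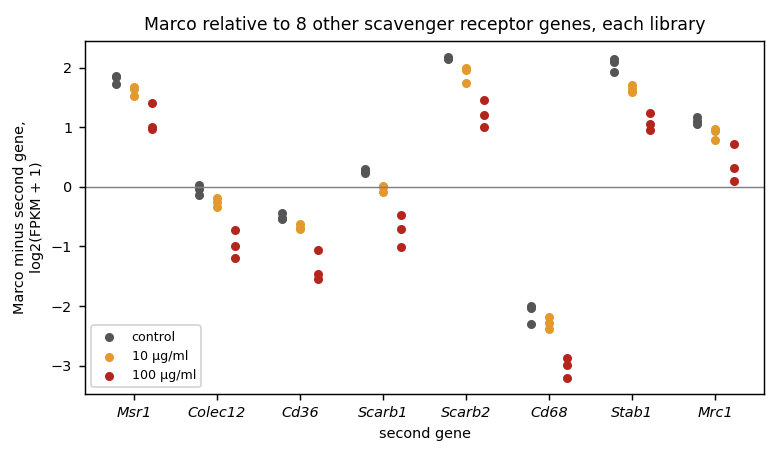
Log2(FPKM + 1) of Marco minus that of each of 8 other receptor genes (vertical axis, gene names on the horizontal axis), 1 point per library, coloured by group. For every second gene the points at 100 µg/ml lie below all control points, with differences of -0.68 to -1.0 between the group means.

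Genes around the receptors were counted in 5 lists, which were chosen with earlier results of these data known. The shares of all tested genes are given for scale, and no list was tested as a set. Of 17 other scavenger receptor genes, 5 were tested and none passed the adjusted threshold of limma at 100 µg/ml (2 had an unadjusted p under 0.05, both lower), with a median log2 fold change of -0.08. Over all tested genes 2.11% passed (1.41% lower and 0.708% higher), and 9.69% were lower at an unadjusted p under 0.05. Those 2 were the beta-glucan receptor Clec7a, at -0.56 (limma, adjusted p = 0.0727), and Cxcl16, a chemokine that also binds oxidized lipoprotein at the cell surface, at -0.45 (limma, adjusted p = 0.0841). Clec7a passed in 1 of 20 other settings, without the first library at 10 µg/ml (limma, adjusted p = 0.0238), and Cxcl16 in 2, the GC and length correction and the fit without the first library at 100 µg/ml (limma, adjusted p = 0.0380 and 0.0351). The lipoprotein receptor Lrp1 was at -0.08 and the ferritin receptor Scara5 at -0.03 on the same scale. The hemoglobin receptor Cd163 was listed at 0 in every library. Of 26 genes of the endocytosis machinery, 23 were tested and none passed (2 at an unadjusted p under 0.05, both lower, against the 9.69% above), with a median of -0.03. The smallest unadjusted p there belonged to Actr2 of the actin-branching complex (-0.12), Cyfip1 of the WAVE complex (-0.15) and the clathrin light chains Clta (0.23) and Cltb (-0.16).

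In the list of partners and cargo, 3 of 16 tested genes fell and none rose at 100 µg/ml, against 1.41% lower and 0.708% higher of all tested genes. At an unadjusted limma p under 0.05, 6 of the 16 were lower and 2 higher, and 9.69% of all tested genes were lower. Tlr2, the lipopeptide receptor that can signal together with Cd36, was at 45.6, 46.8 and 46.3 FPKM in control cells and at 30.8, 33.0 and 35.6 FPKM at 100 µg/ml. Its log2 fold change was -0.47 (limma, adjusted p = 0.00962). The sterol exporter Abcg1 was at 37.0, 38.6 and 38.4 FPKM in control cells and at 28.1, 30.5 and 27.8 FPKM at 100 µg/ml, with a log2 change of -0.39 (limma, adjusted p = 0.0106). Abca1, which loads cholesterol onto apolipoprotein A-I, was at 39.7, 41.3 and 42.4 FPKM in control cells and at 20.3, 28.5 and 29.8 FPKM at 100 µg/ml, with a log2 change of -0.65 (limma, adjusted p = 0.0345). For these 3 genes every high-dose library was below every control. Without the first library at 100 µg/ml Abca1, whose lowest value came from that library, was at -0.48 (limma, adjusted p = 0.00552). In the same fit Tlr2 was at -0.42 and Abcg1 at -0.37 (limma, adjusted p = 0.00806 and 0.0135). The call of Abca1 was lost in 10 of 20 other settings (adjusted p up to 0.135), including when any control or low-dose library or the second at 100 µg/ml was left out, and those of Tlr2 and Abcg1 were lost without control library 2 (limma, adjusted p = 0.0561 and 0.0649) and with only the 6 libraries compared (limma, adjusted p = 0.0692 and 0.0748). Tlr6, another partner of Cd36, was at 0.29 (limma, adjusted p = 0.0924, or 0.0396 after the GC and length correction), and the median of the 16 was -0.07.

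Of the genes for clearance of apoptotic cells, 1 of 9 tested fell and none rose, against 1.41% lower and 0.708% higher of all tested genes. With an unadjusted limma p under 0.05, 2 of the 9 were lower and none higher, and 9.69% of all tested genes were lower. The gene past the adjusted threshold was Mertk, the receptor kinase that binds dying cells through Gas6 and protein S. Mertk was at 5.85, 5.72 and 5.57 FPKM in control cells and at 3.71, 4.47 and 3.94 FPKM at 100 µg/ml, with a log2 change of -0.42 (limma, adjusted p = 0.0411). All high-dose libraries were below the controls, but the call was lost in 11 of 20 other settings (adjusted p up to 0.151), including when any control or low-dose library or the third at 100 µg/ml was left out. Without the first library at 100 µg/ml Mertk was at -0.37 (limma, adjusted p = 0.0493). The integrin chains Itgav (-0.30, limma adjusted p = 0.0919, or 0.0417 after the GC and length correction) and Itgb5 (-0.23) and the ligand Gas6 (-0.15) did not pass, and the median was -0.16.

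Of the transcription factors known at scavenger receptor genes, 1 of 14 tested fell and none rose at 100 µg/ml, against the same shares of all tested genes, with a median of -0.10. Counted at an unadjusted limma p under 0.05, 2 of the 14 were lower and 1 higher, and 9.69% of all tested genes were lower. The large Maf factor Maf was at 30.4, 30.5 and 32.1 FPKM in control cells and at 22.2, 22.4 and 20.5 FPKM at 100 µg/ml, with a log2 change of -0.50 (limma, adjusted p = 0.00962), which was 0.0561 without control library 2 and 0.0558 with only the 6 libraries compared. At 100 against 10 µg/ml Maf also passed, at -0.52 (limma, adjusted p = 0.0138), beside Tlr2 at -0.36 (limma, adjusted p = 0.0326) and Abcg1 at -0.41 (limma, adjusted p = 0.0138). Each of these calls between the doses was lost when some libraries were left out, as given with the other settings. Of all tested genes 0.851% passed between the doses (0.636% lower). The nuclear receptor Nr1h2 (0.20) and Cebpb (0.38) had positive values that did not pass. No gene of the 5 lists passed at 10 µg/ml against control by limma. The only unadjusted p under 0.05 belonged to 1 of the 23 tested genes of the endocytosis machinery, which was higher. Of all tested genes 3.28% had such a p in that comparison.

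**Figure D4:**
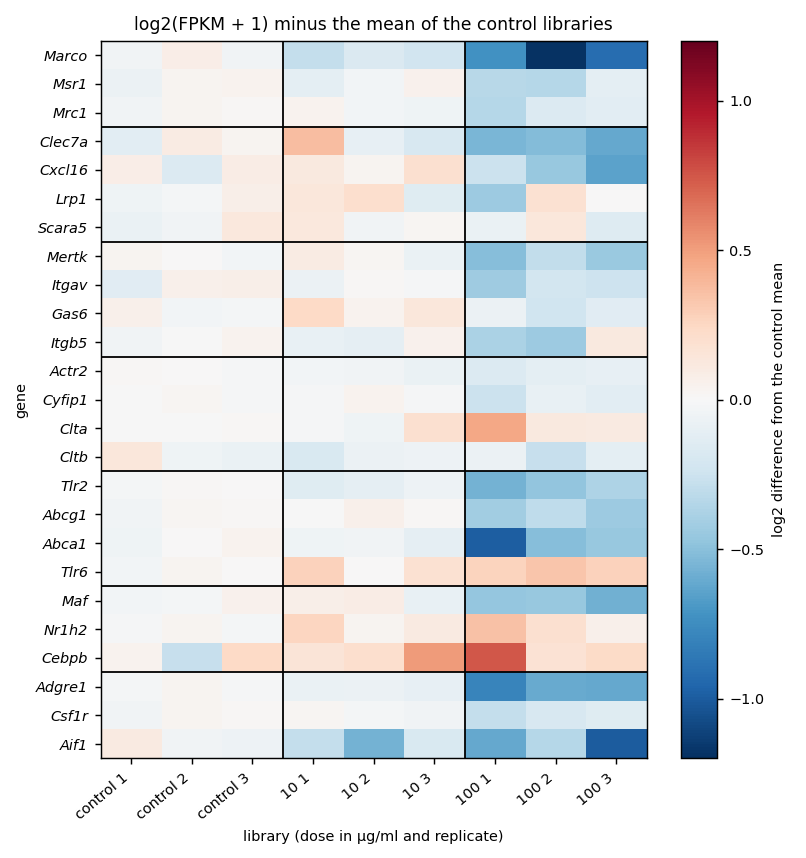
Log2(FPKM + 1) minus the control mean (colour) for Marco, Msr1 and Mrc1 and for the named genes of each list (rows, lists divided by lines in the order other scavenger receptors, clearance of apoptotic cells, endocytosis machinery, partners and cargo, transcription factors, microglial markers) in the 9 libraries (columns). Marco, Mertk, Tlr2, Abcg1, Abca1, Maf and Adgre1, which passed the threshold against control, are blue in all 3 libraries of that dose.

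Of the microglia and macrophage markers, 1 of 9 tested fell at 100 µg/ml, against 1.41% lower of all tested genes. All 9 log2 fold changes were below 0, against 50.4% of all tested genes. The summed level of the 11 markers was 1077 to 1191 FPKM in control cells, 1035 to 1118 FPKM at 10 µg/ml and 925 to 1029 FPKM at 100 µg/ml, with no overlap between control and high dose. Without Adgre1 the sums were 877 to 992 FPKM in control cells and 792 to 912 FPKM at 100 µg/ml, which overlap. The one past the threshold was Adgre1, which encodes F4/80, at 199, 208 and 200 FPKM in control cells and 117, 133 and 132 FPKM at 100 µg/ml, with a log2 change of -0.67 (limma, adjusted p = 0.00224). Csf1r, the receptor for the survival factor CSF1, was at -0.21 (limma, adjusted p = 0.0783, or 0.0191 after the GC and length correction) and Aif1, which encodes Iba1, at -0.65 (limma, adjusted p = 0.0841). Spi1, which encodes PU.1, was at 138, 134 and 137 FPKM in control cells and 142, 131 and 129 FPKM at 100 µg/ml, and these overlapped. At 100 against 10 µg/ml Adgre1 was also lower, at -0.59 (limma, adjusted p = 0.00598), against 0.636% lower of all tested genes. That call was lost with only the 6 libraries compared (limma, adjusted p = 0.0727). The part of the marker levels in the lower values of Marco was not tested.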

How the data were processed

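The data are 9 RNA-seq libraries of BV2 cells, grouped as their labels state. Low-quality reads were removed and the others aligned with TopHat, and the authors deposited gene levels in FPKM from Cufflinks 2.1.1 with Ensembl release 77 (GRCm38), using its multi-read and fragment bias corrections. FPKM carries no read counts, so depth was inferred from how low values step, of which 68.8% to 77.5% lay within 0.25 of a whole fragment (50% by chance). Every column of values was used.

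Analysis was on the log2(FPKM + 1) scale, which understates changes of low genes. The 11161 genes whose 9 libraries averaged 1 FPKM or more entered one limma 3.58.1 fit of the 3 groups (R 4.3.3, eBayes with a trend), and p-values were adjusted over all of them by Benjamini-Hochberg at 0.05. Olr1 was given an exact permutation test. Tables were made with Python 3.11.15, pandas 2.3.3, numpy 2.4.6, scipy 1.17.1 and matplotlib 3.10.9. The procedure was tested on simulated data. GC content and transcript length came from GENCODE M21 for 11076 tested genes (99.2%), and promoters from RefSeq. Clec7a has 2 entries in the table, of which that with the higher mean was used.

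All 10 receptor genes are named. Of each list the genes past the threshold are named, and where fewer than 4 passed, those with the smallest unadjusted p at 100 µg/ml against control, up to 4, except for a gene that is not reported here. Of the microglial markers, Adgre1, Csf1r and Aif1 had the smallest p, and Spi1 was added after its values were seen. The members and lists were chosen with earlier results of these data known. The 20 other settings were pseudocounts of 0.1 and 0.01, a filter at 5 FPKM or none, quantile normalization, rescaling by median of ratios, a loess correction for GC content and length (span 0.5), a replicate block with and without it, eBayes without trend, only the 6 libraries compared, and each library left out. Cuffdiff was not repeated.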

Additional observations from a re-analysis of the deposited data

How the results depend on the processing

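Depth limits Olr1 most among the receptor genes, and its estimate is approximate. Scavenger receptor genes past the adjusted threshold of limma numbered 1 at 100 µg/ml against control, 2 after the correction for GC content and length (Mrc1 joined), 0 with only the 6 libraries compared, and 1 in every fit with a library left out. At 100 against 10 µg/ml they numbered 1, but 0 with no filter on low values, with the replicate block and with only the 6 libraries, and 0 to 1 with a library left out. At 10 µg/ml against control they numbered 0 in every setting. With the replicate block Marco stayed past the threshold against control (limma, adjusted p = 0.0283) and not against 10 µg/ml (limma, adjusted p = 0.0744), and calls over all genes went from 236 to 106 and from 95 to 13. Same-numbered control and high-dose libraries correlated in their deviations at 0.15, 0.03 and 0.10, and differently numbered ones at -0.17 to 0.11. Same-numbered libraries of the other pairs of groups were at -0.09 to 0.07. Whether the numbers pair the libraries cannot be told from correlations this small. The cause of these changes was not tested.

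Over all genes at 100 µg/ml against control, calls numbered 806 after the GC and length correction (384 lower and 422 higher, against 157 and 79 without it), 22 with the 6 libraries and 31 to 539 with a library left out. Against 10 µg/ml they numbered 322, 6 and 8 to 191, and at 10 µg/ml against control 0 to 4. Calls at 100 against 10 µg/ml were lost in 11 of 20 settings for Tlr2, 7 for Abcg1 and 5 for Maf, among them the third high-dose library left out for all 3.

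Log2 fold changes near 0 changed sign. At 100 µg/ml against control, quantile normalization put Cd68 at 0.019 and Scara5 at 0.0091, and the GC and length correction, with or without the replicate block, put Scarb2 at 0.016, Colec12 at 0.031 and Lrp1 at 0.0060. With a library left out the ranges were -0.040 to 0.035 for Scarb2, -0.12 to 0.045 for Cd68, -0.046 to 0.078 for Stab1, -0.22 to 0.094 for Lrp1, -0.11 to 0.034 for Scara5 and -0.084 to 0.24 for Olr1. At 10 µg/ml against control, quantile normalization put Cd68 at 0.026 and Colec12 at 0.011, and the ranges were -0.076 to 0.0081 for Msr1, -0.019 to 0.071 for Scarb2, -0.12 to 0.023 for Cd68, -0.048 to 0.0044 for Colec12 and -0.044 to 0.0063 for Mrc1. At 100 against 10 µg/ml, quantile normalization put Cd68 at -0.0074, the GC and length correction, with or without the block, put Colec12 at 0.044, and the ranges were -0.092 to 0.014 for Cd36, -0.032 to 0.013 for Scarb1, -0.070 to 0.012 for Scarb2, -0.075 to 0.086 for Cd68, -0.030 to 0.013 for Colec12 and -0.045 to 0.28 for Olr1. Olr1 fell below 0 without the first library at 100 µg/ml.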

Other observations

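Stab2, the liver and lymphatic relative of Stab1, was below the filter of 1 FPKM and was singled out after its values were seen. It was at 0.189, 0.364 and 0.266 FPKM in control cells, 0.181, 0.214 and 0.112 FPKM at 10 µg/ml, and 0.849, 0.624 and 1.15 FPKM at 100 µg/ml. All 3 high-dose libraries were above the other 6, and no test was made of it.

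Kdr, the VEGF receptor that was listed as an endothelial marker, was at 65.1, 65.3 and 66.7 FPKM in control cells and 61.3, 74.0 and 74.6 FPKM at 100 µg/ml, while Cldn5 of the same list was at 0 in every library. Its log2 fold change was 0.08 (limma, adjusted p = 0.599). Lrp1 was at 104, 106 and 113 FPKM in control cells and at 79.4, 122 and 108 FPKM at 100 µg/ml, where the low value was that of the library that stood apart by transcript length.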
